A study of Homo sapiens with 8 samples.

Results

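The surface marker genes of mesenchymal stem cells described here were NT5E, THY1, ENG, ALCAM, VCAM1, MCAM, CD34, LEPR, ANPEP and CD9, chosen by gene symbol. Of these 10 genes, 8 had values among the 18508 genes of the array table, and MCAM and LEPR were not analysed here. RNA came from ASC52telo cells and was read on Clariom S human arrays. ASC52telo is a line of adipose-derived stem cells (ADSCs) of human origin, immortalized with hTERT, the catalytic subunit of telomerase. All cells went through 24 h without serum. The SAHA group (n = 3 arrays) was then given 1000 nM SAHA, an inhibitor of histone deacetylases, for 72 h. The EtOH group (n = 2) received the solvent of SAHA, and the untreated group (n = 3) received neither. The study's treatment scheme ends with 24 h in fresh medium after these 72 h. SAHA arrays were compared with the EtOH and untreated arrays combined (n = 5), and then with each control on its own, to find out whether the genes that define these cells kept their levels after SAHA. The replicates are labelled biological replicates of this 1 line. Labels of replicates 1, 2 and 3 also carry 6, 10 and 16 after a p, with no meaning spelled out. Differences between the replicate numbers had been taken out of the values before they were deposited. The p-values and intervals without a replicate block therefore measure the spread left after that step. They count residual degrees of freedom that the block would use, and are too small and too narrow to that extent. Against the combined controls the residual degrees of freedom are 6, and 4 with the block. Centring on the replicate numbers leaves 0.978 of a SAHA effect in the log2 fold changes against the combined controls without the block. That of NT5E was 0.310 without the block and 0.317 with it. Precision is limited by how few arrays there are.

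Mesenchymal stem cells of fat and marrow carry no surface protein that is theirs alone, and are recognised by a set of such proteins together with the absence of blood cell proteins. The set usually includes CD73, CD90 and CD105, the products of NT5E, THY1 and ENG. ALCAM, VCAM1 and MCAM are adhesion molecules, ANPEP (CD13) is an aminopeptidase, CD9 is a tetraspanin, LEPR is the leptin receptor that marks stromal cells of the marrow, and CD34 is a sialomucin found on stromal cells freshly taken from fat that is known to be lost in culture.

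The stretch before the listed transcription start is shown for the 3 genes whose SAHA arrays all lay above all controls (NT5E, CD34 and ANPEP) and for VCAM1, the gene whose mean was lower with SAHA, since an inhibitor of histone deacetylases acts at chromatin. Each sequence holds the 250 bases before the start, read 5′ to 3′ along the gene's own strand, from RefSeq on GRCh38.p14. NT5E is at chr6:85449833-85450082 (plus strand), CD34 at chr1:207911126-207911375 (minus strand) and VCAM1 at chr1:100719492-100719741 (plus strand). ANPEP has 2 listed starts on the minus strand, with windows at chr15:89814853-89815102 (upstream) and chr15:89806629-89806878 (downstream). Capitals mark matches on either strand to the GC box (GGGCGG), the CCAAT box (CCAAT) or the TATA box (TATAAA).
NT5E: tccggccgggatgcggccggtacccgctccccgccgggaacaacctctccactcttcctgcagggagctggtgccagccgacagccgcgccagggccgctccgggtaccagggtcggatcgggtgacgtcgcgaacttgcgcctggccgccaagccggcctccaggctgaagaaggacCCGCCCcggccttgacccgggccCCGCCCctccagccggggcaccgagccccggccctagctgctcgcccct
CD34: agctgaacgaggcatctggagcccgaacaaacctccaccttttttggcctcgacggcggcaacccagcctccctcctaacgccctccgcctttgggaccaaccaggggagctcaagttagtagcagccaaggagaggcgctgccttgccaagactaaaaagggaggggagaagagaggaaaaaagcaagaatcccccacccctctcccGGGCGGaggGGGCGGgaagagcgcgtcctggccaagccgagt
ANPEP upstream start: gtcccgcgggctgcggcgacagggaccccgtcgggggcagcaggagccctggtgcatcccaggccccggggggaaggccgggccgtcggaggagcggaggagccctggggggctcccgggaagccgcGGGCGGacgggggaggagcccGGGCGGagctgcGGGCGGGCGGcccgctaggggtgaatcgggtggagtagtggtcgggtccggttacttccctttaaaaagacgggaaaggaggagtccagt
ANPEP downstream start: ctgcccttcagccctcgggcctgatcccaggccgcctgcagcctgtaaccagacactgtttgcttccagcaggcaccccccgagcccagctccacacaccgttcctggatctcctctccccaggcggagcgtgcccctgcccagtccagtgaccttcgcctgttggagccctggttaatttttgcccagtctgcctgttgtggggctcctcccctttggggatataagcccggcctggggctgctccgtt
VCAM1: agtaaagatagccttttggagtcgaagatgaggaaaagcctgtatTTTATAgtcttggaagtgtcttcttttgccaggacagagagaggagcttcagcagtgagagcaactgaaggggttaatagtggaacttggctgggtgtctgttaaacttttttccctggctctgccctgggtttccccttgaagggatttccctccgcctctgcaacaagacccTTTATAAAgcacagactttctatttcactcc

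The windows of NT5E and CD34 held 2 GC boxes each and that of the upstream ANPEP start held 4, while the downstream ANPEP start matched none of the 3 motifs. The array value of ANPEP does not separate its starts. VCAM1 had 3 matches to the TATA box and no GC box, and 2 of its TATA matches overlap on opposite strands. CpG dinucleotides numbered 28 for NT5E, 26 and 9 for the upstream and downstream ANPEP starts, 14 for CD34 and 2 for VCAM1, beside a median of 11 over all 35116 windows of this length. A GC box was present in 42.6% of all windows, a CCAAT box in 32% and a TATA box in 10.7%. Of the 8 genes with values, 7 had a window, and THY1 was not matched. Among genes not shown, whose SAHA arrays overlapped the controls, ENG had 0 GC boxes and 7 CpG dinucleotides, and ALCAM had 1 and 20. The 4 windows of CD9 had 0, 6, 3 and 0 GC boxes and 10, 28, 29 and 1 CpG dinucleotides. The windows shown were picked by the array values of their genes, so a link between sequence and response was not tested. These counts describe letters in a window and say nothing about which factors bind there.

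Of the 8 marker genes, 0 passed the test in either direction when SAHA was compared with the combined controls (limma, with a Benjamini-Hochberg adjusted p under 0.05 and at least a 1.5-fold difference), beside 0.735% of all genes, 136 of 18508 (0.438% higher and 0.297% lower). ANPEP came nearest, at an adjusted p of 0.121. At an unadjusted p under 0.05 the count was 4 of 8, all higher with SAHA (NT5E, THY1, CD34 and ANPEP), beside 15.4% of all genes in either direction, 5.82% higher and 9.58% lower. The median log2 fold change of the 8 genes was 0.28, that of all genes was -0.03, and 7 of the 8 values were above 0, beside 42.4% of all genes. The 3 genes whose SAHA arrays all lay above all 5 control arrays compare with 4.21% of all genes, and 0 of 8 had SAHA arrays all below, beside 6.25%. Among the 4627 brightest genes, which hold 6 of the 8, 3 of 6 were higher at an unadjusted p under 0.05, beside 11.4%.

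**Figure D1:**
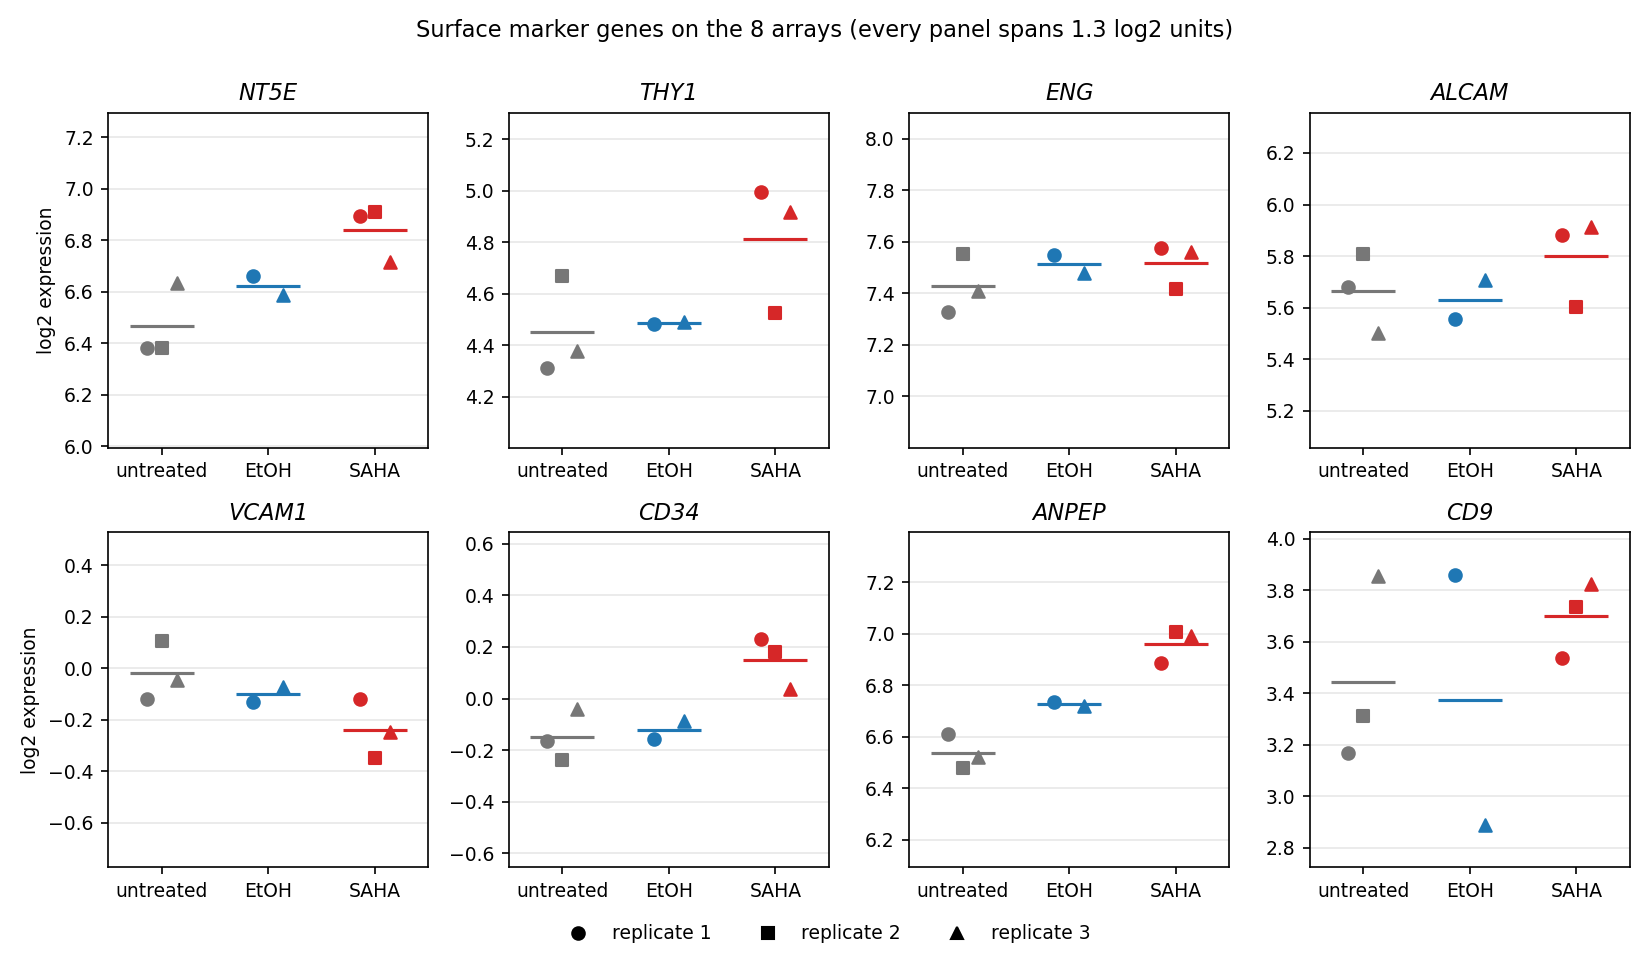
Log2 expression (vertical axis) of the 8 marker genes on each array, by group (horizontal axis), with a bar at each group mean and a symbol for each replicate number; every panel spans the same range of log2 units. The SAHA arrays of NT5E, CD34 and ANPEP sit above all 5 control arrays, those of the other 5 genes overlap the controls, and the control arrays of CD9 spread from 2.89 to 3.86.

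NT5E, THY1 and ENG are the genes of the surface set by which these cells are usually defined. All were above the array median, which lay between 0.26 and 0.33, on all 8 arrays. NT5E encodes CD73, an enzyme on the cell surface that converts AMP into adenosine. Its log2 expression was 6.38, 6.38 and 6.63 on the untreated arrays of replicates 1, 2 and 3, 6.66 and 6.59 on the EtOH arrays of replicates 1 and 3, and 6.89, 6.91 and 6.72 on the SAHA arrays. The SAHA arrays were the highest 3 of the 8, and the nearest control was EtOH replicate 1. The mean was 6.84 ± 0.11 (SD, n = 3) with SAHA and 6.53 ± 0.14 (SD, n = 5) in the controls. The difference of 0.31 on the log2 scale (SE 0.10, 95% confidence interval 0.08 to 0.54), a fold of 1.24, had an adjusted p of 0.196 and was not called.

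THY1 encodes CD90, a small glycoprotein that a lipid anchor holds on the cell surface. Its values were 4.31, 4.67 and 4.38 on the untreated arrays, 4.48 and 4.49 on the EtOH arrays, and 4.99, 4.53 and 4.92 on the SAHA arrays. SAHA replicates 1 and 3 were above every control, whereas SAHA replicate 2 lay below untreated replicate 2. The log2 fold change was 0.35 (SE 0.13, 95% confidence interval 0.07 to 0.63), with an adjusted p of 0.230. ENG encodes endoglin, a co-receptor for ligands of the TGF-beta and BMP family. It read 7.33, 7.55 and 7.41 in untreated cells, 7.55 and 7.48 with EtOH and 7.58, 7.41 and 7.56 with SAHA, and the groups overlapped throughout. The log2 fold change of ENG was 0.05 (SE 0.09, 95% confidence interval -0.15 to 0.26) at an adjusted p of 0.827, the smallest difference among the 8 genes.

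ANPEP encodes aminopeptidase N, which trims peptides outside the cell. It was measured at 6.61, 6.48 and 6.52 on the untreated arrays, 6.73 and 6.72 on the EtOH arrays and 6.89, 7.01 and 6.99 on the SAHA arrays. The groups did not overlap and stood in the order untreated, EtOH, SAHA. Neither step was called, at an adjusted p of 0.379 for SAHA against EtOH and 0.578 for EtOH against untreated (limma). How many of all genes show a full order of the groups was not counted. The mean was 6.96 ± 0.06 (SD, n = 3) with SAHA and 6.61 ± 0.11 (SD, n = 5) in the controls. The log2 fold change of 0.35 (SE 0.10, 95% confidence interval 0.14 to 0.56), a fold of 1.27, was the largest of the 8 genes and was not called.

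CD34 values were -0.17, -0.24 and -0.04 on the untreated arrays, -0.16 and -0.09 on the EtOH arrays, and 0.23, 0.18 and 0.04 on the SAHA arrays. Every SAHA array exceeded every control array, and yet all 8 values were below the median of their array. The log2 fold change was 0.29 (SE 0.09, 95% confidence interval 0.09 to 0.49), with an adjusted p of 0.173. The table gives no background level, so how much of a value this low is signal of the transcript cannot be told.

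The adhesion molecules with values were ALCAM, which binds CD6 on lymphocytes and other ALCAM molecules, and VCAM1, which binds integrins of leukocytes. ALCAM read 5.68, 5.81 and 5.50 on the untreated arrays, 5.55 and 5.71 on the EtOH arrays, and 5.88, 5.60 and 5.91 on the SAHA arrays. SAHA replicates 1 and 3 were above all controls and SAHA replicate 2 was within their range. Its log2 fold change was 0.15 (SE 0.11, 95% confidence interval -0.09 to 0.39) at an adjusted p of 0.556. VCAM1 was below the array median on all 8 arrays, at -0.12, 0.11 and -0.05 in untreated cells, -0.13 and -0.07 with EtOH and -0.12, -0.35 and -0.25 with SAHA. VCAM1 alone of the 8 genes had a lower mean with SAHA, by a log2 fold change of -0.19 (SE 0.10, 95% confidence interval -0.40 to 0.03) at an adjusted p of 0.388, and the groups overlapped.

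CD9 encodes a tetraspanin, a protein with several membrane spans that gathers integrins and other partners in the membrane. Its values were 3.17, 3.31 and 3.85 on the untreated arrays, 3.86 and 2.89 on the EtOH arrays, and 3.54, 3.73 and 3.82 on the SAHA arrays. All SAHA arrays lay inside the range of the controls. The SD of its 5 control arrays was 0.43, a spread that 1.47% of all genes reached or exceeded, and its SAHA arrays had an SD of 0.15. The log2 fold change of CD9 was 0.28 (SE 0.21, 95% confidence interval -0.19 to 0.75) at an adjusted p of 0.568.

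The intervals give the sizes of difference that these arrays leave possible. In 6 of the 8 genes the 95% confidence interval lay within 1.5-fold either way, 0.58 on the log2 scale; THY1 and CD9 were the exceptions. In all 8 it lay within 2-fold. With the replicate number as a block, intervals against the combined controls were wider and 3 of the 8 stayed within 1.5-fold, while all 8 stayed within 2-fold. In that comparison the block left 2 genes at an unadjusted p under 0.05, THY1 and ANPEP, beside 8.72% of all genes, and 0 passed the test. Against EtOH alone with the block, only ENG and VCAM1 stayed within 1.5-fold, and the interval of CD9, 0.79-fold to 2.05-fold, went beyond 2-fold.

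**Figure D2:**
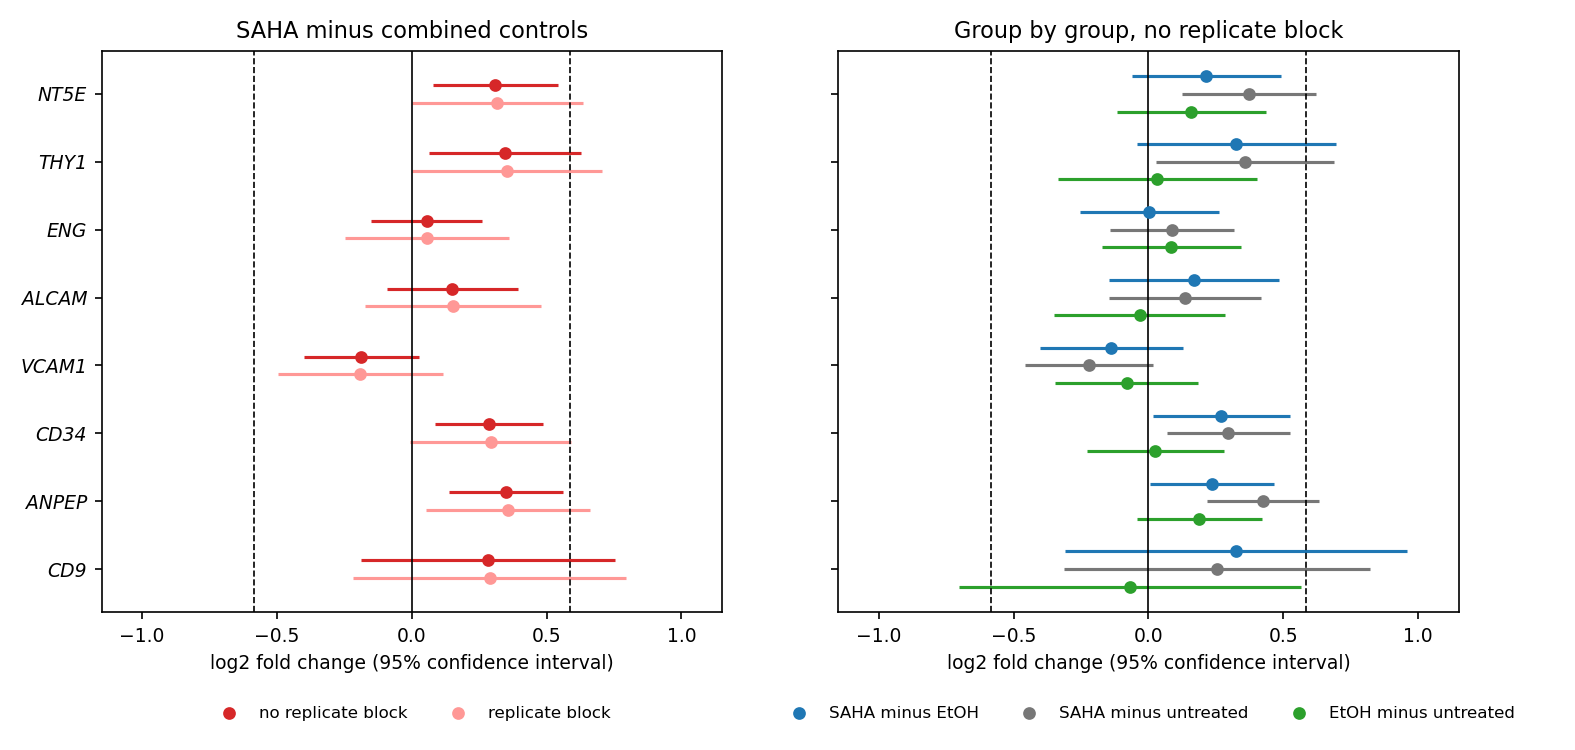
Log2 fold change with 95% confidence interval (horizontal axis) for each of the 8 marker genes (vertical axis), for SAHA minus the combined controls without and with the replicate block (left) and for each pair of groups (right); dashed lines mark 1.5-fold. Without the block 6 of the 8 intervals on the left stay inside the dashed lines, and with it 3 of 8 do. CD9 has the widest intervals, and ENG lies between 0.00 and 0.09 in the comparisons without the block.

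Against each control on its own the marker genes gave 0 calls. These comparisons share the SAHA arrays with each other and with the comparison above, so they are not separate evidence. Against EtOH, the solvent control, 0 of 8 passed, beside 0.103% of all genes, and 2 of 8 (CD34 and ANPEP) were higher at an unadjusted p under 0.05, beside 12.9% of all genes in either direction and 4.53% higher. With the replicate block that count was 0 of 8, beside 6.63% of all genes (limma, unadjusted p 0.157 for CD34 and 0.219 for ANPEP). The differences from EtOH were 0.21 for NT5E, 0.33 for THY1, 0.27 for CD34, 0.24 for ANPEP and 0.32 for CD9 on the log2 scale, with adjusted p-values from 0.367 (CD34) to 0.663 (CD9). ENG differed from EtOH by 0.0038 (95% confidence interval -0.25 to 0.26). Against untreated cells 0 of 8 passed, beside 0.789%, and 4 of 8 were higher at an unadjusted p under 0.05 (NT5E, THY1, CD34 and ANPEP), beside 16.5% in either direction and 6.62% higher. With the block 2 of the 4 were left, NT5E and ANPEP, beside 8.08% of all genes. The differences from untreated were 0.37 for NT5E, 0.36 for THY1, 0.30 for CD34 and 0.42 for ANPEP, and the adjusted p of ANPEP was 0.0714.

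EtOH and untreated cells, which the main comparison combines, differed in 0 of the 8 marker genes and in 0% of all genes by the same rule (limma). At an unadjusted p under 0.05 without the block the count of markers was also 0, beside 9.75% of all genes. With the replicate block it was 0 of 8, beside 4.13% of all genes. The largest differences were 0.19 for ANPEP (95% confidence interval -0.04 to 0.42) and 0.16 for NT5E (95% confidence interval -0.12 to 0.44), both higher with EtOH, and the others lay between -0.08 and 0.09. Without the block the interval was within 1.5-fold for 7 of the 8, CD9 being the exception. With the block ANPEP, at 0.860-fold to 1.505-fold, was an exception as well. With 2 EtOH arrays, differences of any size inside these intervals remain possible.

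Replicate numbers are shared by the groups, so each SAHA array could also be set against the controls of its own number, which gave 5 differences for each gene. The SAHA arrays of replicates 1 and 3 each entered 2 of these differences. In the table, the mean over the arrays of a number is the same for all 3 numbers in every gene. The 2 arrays of replicate 2, untreated and SAHA, are thereby mirror images about that mean, and a low SAHA value there comes with a high untreated one. All 5 differences were above 0 for NT5E (0.08 to 0.53), CD34 (0.08 to 0.42) and ANPEP (0.15 to 0.53). These 3 of 8 genes compare with 5.51% of all genes in which SAHA exceeded every control of its number, and in 8.78% it lay below every one. The SAHA arrays of these 3 genes lay above all control arrays, so this outcome was fixed in advance and adds no evidence. THY1, ENG and ALCAM were higher in 4 of 5 differences, and in each of them the exception was replicate 2, where SAHA minus untreated was -0.14 for THY1, -0.14 for ENG and -0.21 for ALCAM. VCAM1 had 3 differences below 0, 1 above and 1 at 0, where SAHA replicate 1 and untreated replicate 1 had the same value.

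CD9 was the marker gene on which the replicates disagreed most. EtOH minus untreated was 0.69 in replicate 1 and -0.97 in replicate 3, a reversal of at least 0.5 on both sides that 1.24% of all genes showed. SAHA minus EtOH followed, at -0.32 in replicate 1 and 0.93 in replicate 3. SAHA minus untreated was 0.37, 0.42 and -0.03 in replicates 1, 2 and 3. The sign of the CD9 difference from EtOH thus depended on the replicate, and without EtOH replicate 3 it was -0.16.

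**Figure D3:**
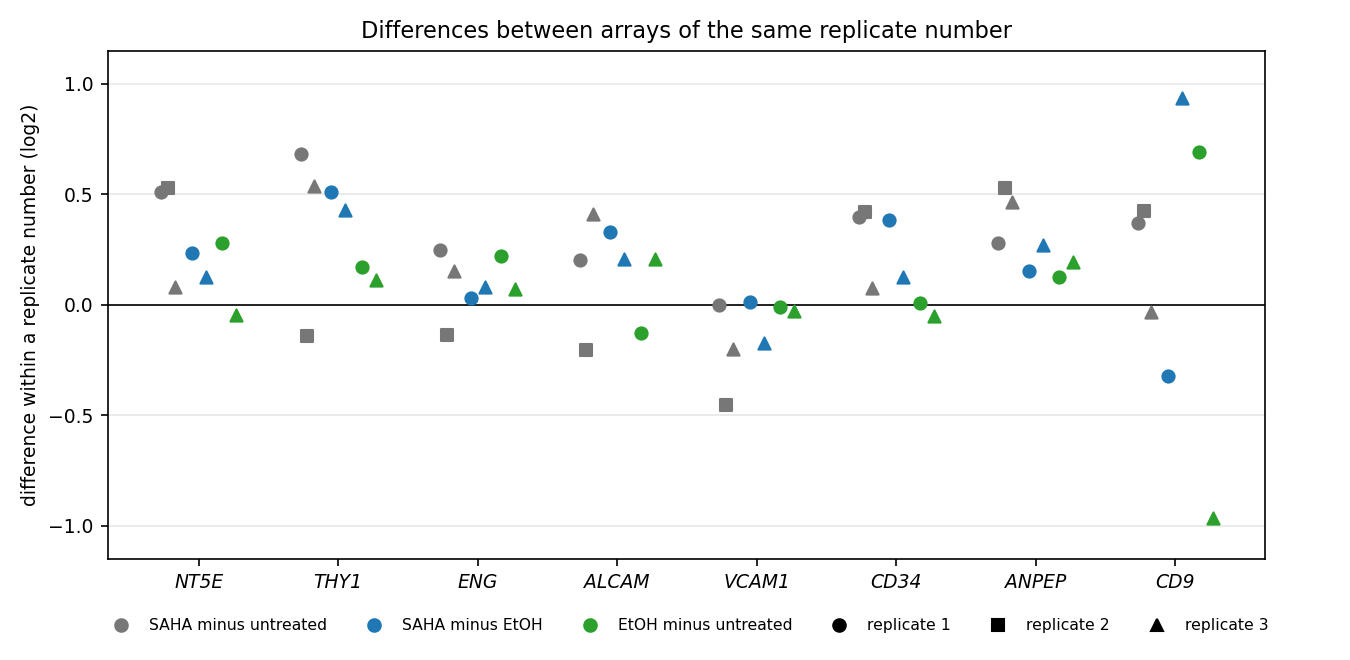
Differences in log2 expression between arrays of the same replicate number (vertical axis) for the 8 marker genes (horizontal axis), with colour for the pair of groups and shape for the replicate number. SAHA minus control is above 0 in all 5 differences of NT5E, CD34 and ANPEP, and the EtOH minus untreated differences of CD9 lie at 0.69 and -0.97.

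Genes that work with the markers were counted by list, 125 genes with values over 11 lists that overlap in part. By the same rule 5 rose, 0 fell and the others were not called, beside 0.438% of all genes that rose and 0.297% that fell. The lists were chosen with earlier results of these data known, so the counts are no independent test. None of the 5 passed against EtOH alone, where their adjusted p-values ran from 0.0670 to 0.147. The adenosine list holds the enzymes, transporters and receptors around NT5E, and 1 of its 13 genes with values rose, ENPP1, which splits extracellular ATP and so supplies the AMP that CD73 uses. ENPP1 was at 2.74, 1.92 and 2.94 on the untreated arrays, 2.42 and 2.28 on the EtOH arrays and 3.55, 3.89 and 3.50 on the SAHA arrays, a log2 fold change of 1.19 (SE 0.21, adjusted p 0.0294). The median of this list was -0.00062, beside -0.03 for all genes. With the replicate block the adjusted p of ENPP1 was 0.0529, and 0 of the list passed.

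Of the 13 receptors, ligands and effectors around ENG, 2 rose, with a list median of 0.08. At an unadjusted p under 0.05, 5 of the 13 were higher and 0 lower (limma), beside 5.82% of all genes higher and 9.58% lower. TGFBR2, the type II receptor for TGF-beta, read 4.68, 4.20 and 4.56 in untreated cells, 4.56 and 4.42 with EtOH and 5.37, 5.54 and 5.63 with SAHA. Its log2 fold change was 1.03 (SE 0.12, adjusted p 0.00461), and its adjusted p was 0.0150 with the block and 0.0670 against EtOH alone, where it was not called. TGFBR3, or betaglycan, is a co-receptor related to endoglin, and its log2 fold change was 0.79 (SE 0.13, adjusted p 0.0204), at an adjusted p of 0.0788 with the block. All SAHA arrays of both genes lay above all controls, while ENG itself differed by 0.05.

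Among 18 other surface markers of stromal cells 2 rose, with a list median of 0.04. The log2 fold change was above 0 in 10 of them and below 0 in 8, down to -0.47. At an unadjusted p under 0.05, 6 were higher and 4 lower (limma), beside 5.82% of all genes higher and 9.58% lower. CD36, a fatty acid and thrombospondin receptor, was at 2.95, 3.01 and 3.03 on the untreated arrays, 3.26 and 2.62 on the EtOH arrays and 3.86, 3.70 and 4.43 on the SAHA arrays, a log2 fold change of 1.03 (SE 0.18, adjusted p 0.0293). PODXL, a sialomucin of the same family as CD34, was at 2.25, 2.21 and 1.81 on the untreated arrays, 1.83 and 2.27 on the EtOH arrays and 3.24, 2.67 and 3.23 on the SAHA arrays, a log2 fold change of 0.97 (SE 0.17, adjusted p 0.0278). Their adjusted p-values with the block were 0.0643 and 0.0670, and neither was called. CD36, TGFBR2 and TGFBR3 are also named by the study on these arrays, so their direction is not independent evidence.

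The remaining partner lists had 0 calls. Of 18 adhesion partners, the largest differences were MSN at -0.36 and ITGB1 at 0.35, with a list median of -0.07. Of 11 genes with values around LEPR, they were STAT3 at -0.27 and STAT5B at -0.20 (median -0.09), and LEPROT, which shares the LEPR locus, was not analysed here. Of 18 tetraspanins and partners of CD9, they were HBEGF at -0.45 and ITGA3 at 0.36 (median -0.08). Of 12 aminopeptidases and other peptidases like ANPEP, they were ERAP1 at -0.78 (adjusted p 0.112) and LNPEP at 0.32 (median 0.05). At an unadjusted p under 0.05 these 4 lists had 2, 0, 0 and 0 genes higher and 3, 0, 2 and 2 lower (limma), beside 5.82% of all genes higher and 9.58% lower.

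**Figure D4:**
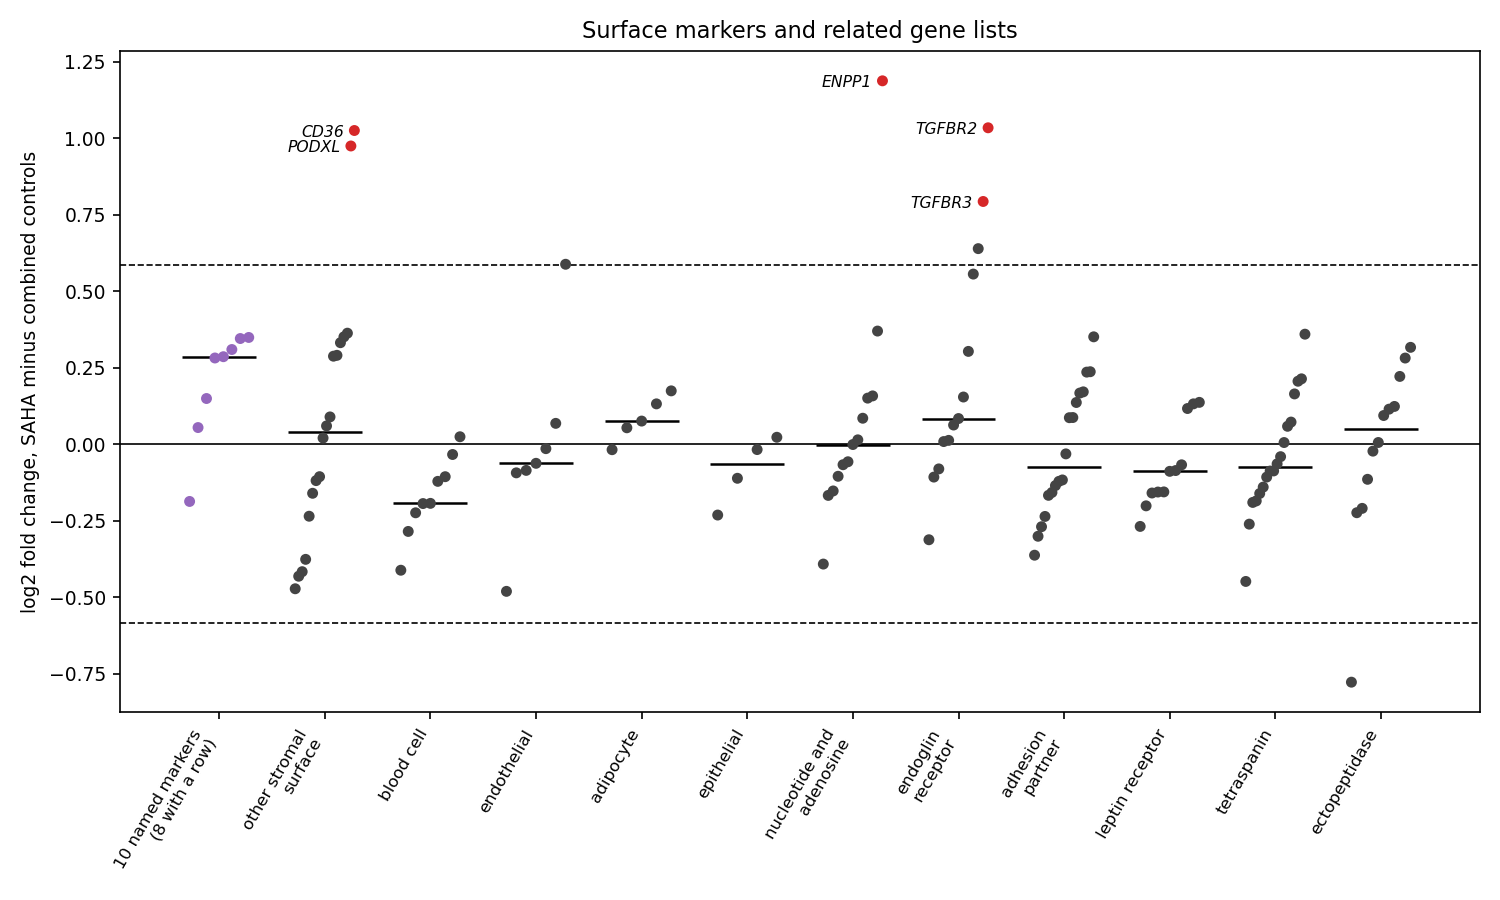
Log2 fold change of SAHA minus the combined controls (vertical axis) for the marker genes and the members of each related list (horizontal axis); each point is 1 gene, bars are medians, dashed lines mark 1.5-fold and red points are genes that passed the test. The 5 named red points are the called genes, and the 8 marker genes lie between -0.19 and 0.35.

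The label of the cells was set against markers of other cell types. Of 9 blood cell genes, 5 were below the array median on all 8 arrays, among them PTPRC (CD45), which reached at most -0.03, and CD68, a lysosomal protein of macrophages that stromal cells can also make, was the highest at 2.11 to 3.28. Their log2 values summed over the list and divided by its size were 0.167 to 0.347 on the SAHA arrays and 0.388 to 0.488 on the control arrays. These ranges did not overlap, although 0 of the 9 were called (largest differences CD3E at -0.41 and CD79A at -0.28, list median -0.19) and 1 was lower at an unadjusted p under 0.05. The medians of all genes were also lower on the SAHA arrays, at 0.259 to 0.275, than on the control arrays, at 0.303 to 0.328. Of single genes, 6.25% had all SAHA arrays below all controls, and the share of gene lists that do so was not counted. Of 7 endothelial genes 4 were below the median throughout, PECAM1 among them, and the list means were 0.0827 to 0.369 with SAHA and 0.103 to 0.314 in controls, with TEK at 0.59 (adjusted p 0.156) and VWF at -0.48 (adjusted p 0.0938). Of 5 adipocyte genes 4 were below the median throughout, with list means of -0.132 to 0.0553 with SAHA and -0.169 to 0.0126 in controls, and with PLIN1 at 0.17 and LEP at 0.13. Of 4 epithelial genes 3 were below the median throughout, with list means of -0.164 to 0.0287 with SAHA and -0.127 to 0.165 in controls, and with CLDN4 at -0.23 and EPCAM at -0.11. In bulk RNA, fewer cells of a type and less RNA per cell cannot be told apart. The part of these shifts in the marker values was not tested.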

How the data were processed

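The authors hybridized RNA to Clariom S human arrays, left out 1 EtOH array for its low intensity, and used RMA in the oligo package on the rest. Versions of oligo and of the annotation, and the genome build, are not given in the sources used here. The deposited values are log2 expression, 1 value per gene and array, from -0.83 to 9.96, with an unknown offset. Where genes are ranked by value, as for the brightest genes, the array median or the highest of a list, array values are meant. They are not amounts of transcript that can be compared between genes. The mean over the arrays of each replicate number was equal in all 18508 genes within 1e-10, by a step that the methods do not name.

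The marker genes and the 11 lists, the latter from general knowledge, were chosen with earlier results of these data known. In R 4.3.3, limma 3.58.1 fitted SAHA against EtOH and untreated combined, as the methods describe, with no filter and with Benjamini-Hochberg adjustment over all 18508 genes. A call needed an adjusted p under 0.05 together with at least a 1.5-fold difference; "rose" and "fell" are used of called genes. A second fit kept the 3 groups apart. Up to 3 called genes of each list are named in each direction or, where none was called, the 2 with the largest difference. The fits were tested on simulated data.

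Labels of replicates 1, 2 and 3 carry 6, 10 and 16 after a p, with no meaning spelled out. The number as a block (against the combined controls, 4 residual degrees of freedom, 6 without) was an alternative. Others were quantile normalization, median centring, a filter on dim genes (12339 kept), an intensity trend, robust variances, array weights, leaving out each array, equal weight for both controls, either control alone, the fold threshold inside the test and the methods' t-test. Promoter windows came from a RefSeq table, with motifs counted in Python 3.11.15. Raw array files, proteomics and qPCR were not analysed here.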

Additional observations from a re-analysis of the deposited data

How the results depend on the processing

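The count of marker genes called was 0 under every alternative run for the 4 comparisons. Over the alternatives of SAHA against combined controls, the log2 fold change ran from 0.24 to 0.42 for ANPEP (adjusted p 0.0515, with array weights, to 0.487, with the replicate block), from 0.21 to 0.37 for NT5E (0.0949 to 0.573), from 0.23 to 0.49 for THY1 (0.129 to 0.573) and from 0.25 to 0.34 for CD34 (0.0895 to 0.583). It ran from 0.15 to 0.39 for CD9, 0.07 to 0.25 for ALCAM, 0.00 to 0.11 for ENG and -0.25 to -0.13 for VCAM1. CD34 and VCAM1 have no value under the filter on dim genes. The methods' t-test called 0 marker genes and 9 genes in all, with 5 marker genes at an unadjusted p under 0.05.

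The pairing by replicate number cannot be checked from correlations, since the numbers were centred. With the replicate block 36 genes were higher and 14 lower, against 81 and 55 without it, and they were as low as 20 and 10 without 1 array (SAHA replicate 3). Median centring gave 99 higher and 37 lower, moving the median of all genes from -0.03 to 0.01, and array weights gave 121 and 112. EtOH alone as control gave 16 and 3, and the fold threshold inside the test 3 and 1.

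Of the related lists, 5 genes were called. The count was 6 under median centring, and it fell to 1 under the replicate block, to 0 against EtOH alone and to 1 against untreated alone. Leaving out 1 array at a time gave 1 to 5: 1 without SAHA replicate 1 or SAHA replicate 3, 2 without untreated replicate 2 and 3 without EtOH replicate 1. A lone EtOH array was taken to vary like the others.

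Signs that turned were those of differences near 0 or of CD9, and each of these results is given with its range on leaving out 1 array. ENG against EtOH was -0.054 with quantile normalization, -0.00829 with array weights and -0.0013 with the block, and ran from -0.030 (without EtOH replicate 3) to 0.055, with -0.025 and -0.018 without SAHA replicates 1 and 3. CD9 against EtOH ran from -0.16 (without EtOH replicate 3) to 0.81. For EtOH against untreated, THY1 ran from -0.037 (without untreated replicate 1) to 0.14, with -0.00375 without untreated replicate 3. ALCAM ran from -0.11 to 0.042 (without EtOH replicate 1), with 0.040 without untreated replicate 2. CD34 ran from -0.020 (without untreated replicate 2) to 0.080, with -0.00730 without EtOH replicate 3. CD9 ran from -0.56 to 0.42 (without EtOH replicate 3), with 0.14 without untreated replicate 3. LEP against combined controls ran from -0.024 (without SAHA replicate 1) to 0.27. The cause was not tested.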
